A study of Homo sapiens with 9 samples.

Results

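AP-1 is a dimeric transcription factor built from the JUN, FOS and ATF families of leucine zipper proteins, and the genes described here are the 5 members JUN, FOS, FOSL1, FOSL2 and ATF3. They were chosen by name, with earlier results of these data known, out of 20098 protein-coding genes whose start could be placed in a 40 kb bin of the Hi-C maps. FOS proteins cannot pair with each other and bind DNA as dimers with a JUN protein, most often at the TPA response element, whereas ATF3 pairs with itself or with JUN proteins. JUN and FOS are immediate early genes that growth factors and RAS signalling switch on, FOSL1 (FRA-1) and FOSL2 (FRA-2) are slower and more lasting members of the FOS family, and ATF3 is a stress-induced member. In senescent fibroblasts AP-1 is known as a factor that occupies many enhancers.

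The study mapped chromatin contacts in IMR90, a line of human diploid lung fibroblasts, to ask how genes meet distant DNA in oncogene-induced senescence. All cells carried the label ER:HRAS(G12V), an oncogenic HRAS fused to the oestrogen receptor, which stays inactive until 4-hydroxytamoxifen (4OHT) is given. Growing cells received no 4OHT (3 Hi-C libraries), and cells in RAS-induced senescence (RIS) received 100 nM 4OHT for 6 days (2 Hi-C libraries). Growing replicate 3 also carried an MSCV vector by its label, so the growing group is not uniform, no cells given 4OHT without the construct are part of the comparison, and by the study's reporting form the authors left out a further RIS library for few valid reads and low complexity. The counts of contacts recovered from the maps ran from 154318992 to 180775315 in the growing libraries and were 109967509 and 150689993 in the RIS libraries, so values from RIS cells rest on fewer contacts. Where single libraries are given, they stand in the order of their replicate numbers. With 3 libraries against 2, no two-sided exact permutation test can give a p below 0.1, and p-values measure the spread between these libraries, each a separate sample by its label. Hi-C holds no expression values, so the cell type could not be checked against marker genes here, and a contact made more often in each cell and a contact made in more of the cells cannot be told apart.

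Capture Hi-C, which enriches chosen regions and was made in 2 libraries of each condition, added nothing on these genes. None of the 5 genes had a 10 kb bin with values in any of the 4 capture libraries. Only for FOS did a captured region begin within 1 Mb of the gene start, with 38 bins that held values in each library, the nearest of them 614 kb downstream. The FOS promoter was therefore not tested in these libraries.

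The positions are those of hg19. JUN is a single short gene at chr1:59242517-59249720 on the minus strand, and its start lies in the bin chr1:59240001-59280000. FOS is the shortest of them at chr14:75745529-75748933 on the plus strand (bin chr14:75720001-75760000). FOSL1 lies at chr11:65659520-65668044 on the minus strand (bin chr11:65640001-65680000), FOSL2 at chr2:28615315-28640184 on the plus strand (bin chr2:28600001-28640000). ATF3 lies at chr1:212738676-212794119 on the plus strand. Its first start is in the bin chr1:212720001-212760000, and the start of its main transcript, 212782103, is in the next bin. The bin with the first start was used for ATF3 unless stated otherwise. These neighbourhoods differ in gene content. Within 1 Mb of the start there were 5 other protein-coding gene starts for JUN, 17 for ATF3, 24 for FOSL2, 27 for FOS and 91 for FOSL1, beside a median of 23 over all protein-coding genes.

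For JUN, ATF3 and FOS the sequence just before the first annotated start is printed, because it is the regulatory DNA inside the bins whose contacts are described. It comes from promoter windows of RefSeq (GRCh38.p14), was matched to a single place on its own chromosome in hg19 and was cut where the annotated gene begins. The stretches are chr1:59249721-59249969 (minus strand) for JUN, chr1:212738499-212738675 (plus strand) for ATF3 and chr14:75745281-75745528 (plus strand) for FOS, written 5′ to 3′ along the gene, with searched motifs in capitals.
JUN: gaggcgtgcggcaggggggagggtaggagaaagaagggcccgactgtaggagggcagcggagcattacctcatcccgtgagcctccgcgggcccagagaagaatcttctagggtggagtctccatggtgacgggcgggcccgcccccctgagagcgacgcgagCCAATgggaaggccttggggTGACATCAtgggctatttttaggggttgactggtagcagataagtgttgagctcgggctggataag
ATF3: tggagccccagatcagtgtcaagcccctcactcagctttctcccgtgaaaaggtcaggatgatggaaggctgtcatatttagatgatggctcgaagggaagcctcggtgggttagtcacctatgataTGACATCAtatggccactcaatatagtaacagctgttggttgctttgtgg
FOS: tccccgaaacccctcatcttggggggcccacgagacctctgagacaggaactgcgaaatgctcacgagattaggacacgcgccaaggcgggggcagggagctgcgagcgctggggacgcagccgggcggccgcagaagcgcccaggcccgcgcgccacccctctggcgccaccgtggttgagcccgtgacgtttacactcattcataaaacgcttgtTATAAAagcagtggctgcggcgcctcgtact
JUN and ATF3 both held TGACATCA, the AP-1 and ATF recognition element known from the JUN promoter, 67 to 60 bases before the RefSeq start of JUN and 123 to 116 bases before that of ATF3. This element (either strand, TGACATCA or TGATGTCA) occurred in 2.37% of 35116 RefSeq promoter windows of 250 bases. JUN also held CCAAT, which 32% of the windows held on either strand, and FOS held TATAAA 33 to 28 bases before its start, which 10.7% held. ATF3 held CCAAT on the other strand (ATTGG), 25 to 21 bases before its RefSeq start and past the printed stretch. Another ATF3 window held TATAAA, 230 to 225 bases before the start at 212788360. No window of JUN, FOS, FOSL2 or ATF3 held the exact strings TGACTCA or TGAGTCA (4.2% of windows) or TGACGTCA (1.65%). None held the CArG box CCWWWWWWGG (W for A or T), which 1.16% of windows held. Other variants of these elements were not searched, so their absence is not shown. The ATF3 windows end before 212738749 and 212788360, so the bases before its main start, 212782103, were not searched. FOSL1 and FOSL2 are named only.

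Each promoter bin was described by its contacts with every 40 kb bin within 1 Mb, as observed over expected contact, where the expected value is the mean of the chromosome at the same distance in the same library. On the log2 scale 0 is the average for that distance. The members fell into different patterns in growing cells.

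**Figure D1:**
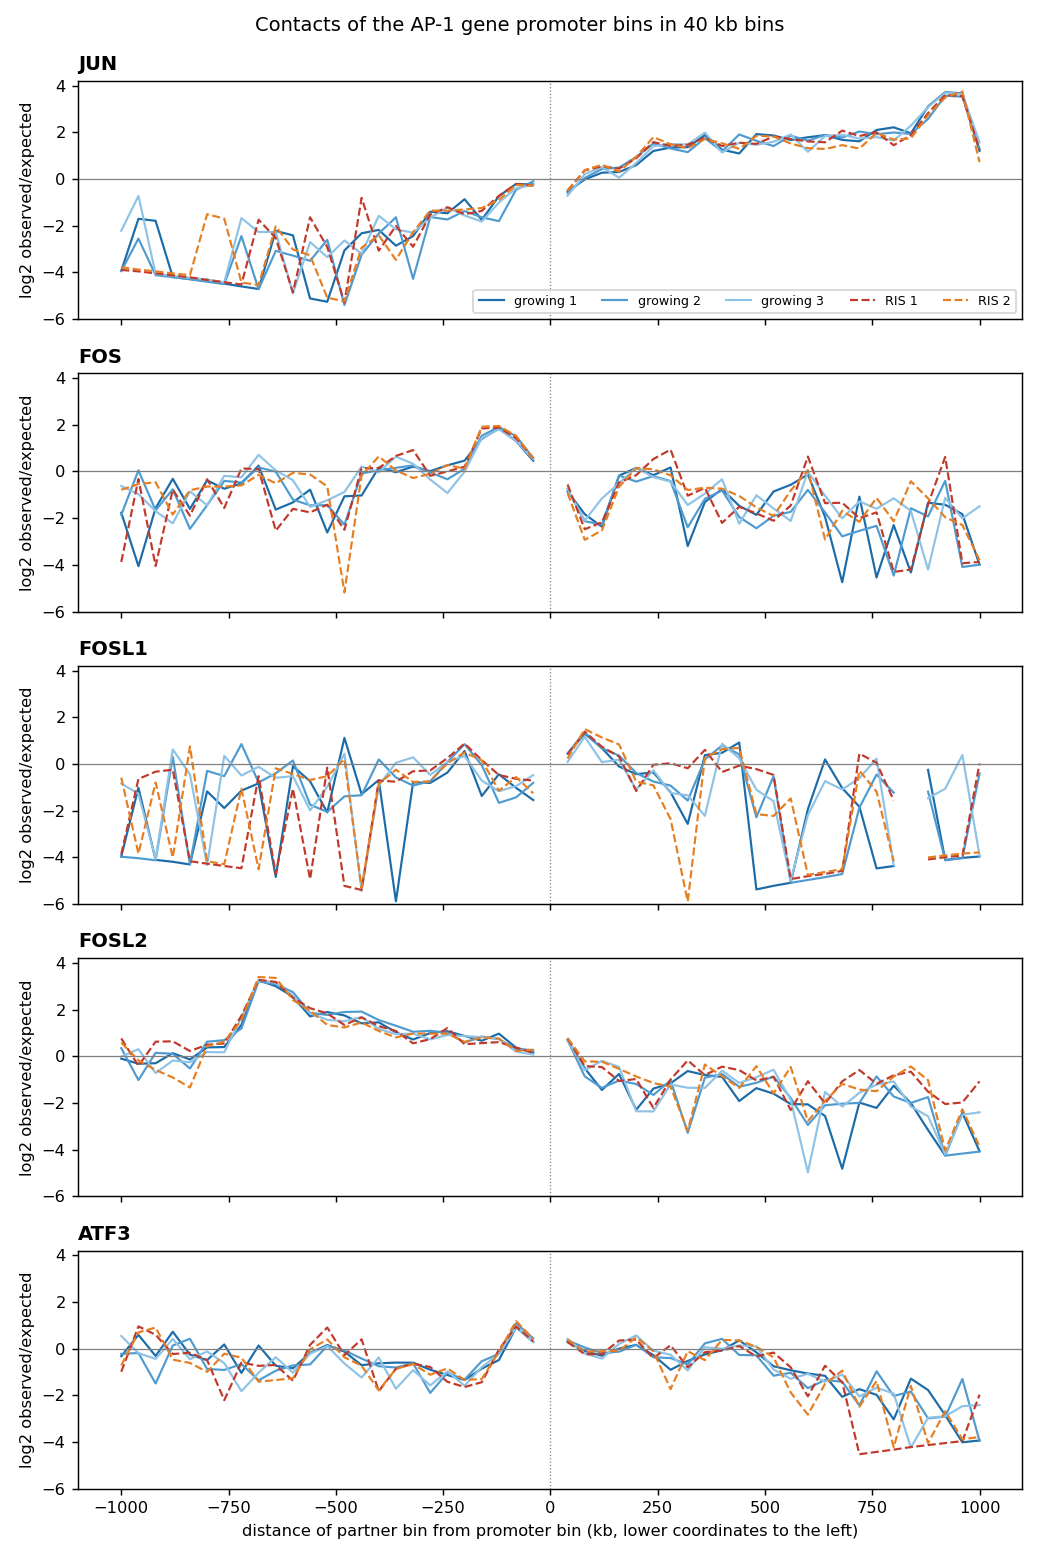
Contacts of the 5 promoter bins with each 40 kb bin within 1 Mb, as log2 observed over expected (pseudocount 0.5), against the distance in kb with lower coordinates to the left; blue solid lines are the 3 growing libraries and red or orange dashed lines the 2 RIS libraries. JUN contacts run to the right up to a peak at 920 and 960 kb, FOSL2 contacts run to the left with a peak at -680 kb, and the jagged low stretches are pairs with few or no contacts.

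JUN, the partner of all FOS proteins in AP-1, had the most one-sided contacts. Toward its upstream side, at higher coordinates, the observed over expected contact within 1 Mb was 0.96, 0.97 and 0.96 (log2) in the growing libraries, against 1.00 and 0.95 in the RIS libraries. On its downstream side the same values were -0.93, -1.04 and -0.98 in growing cells, against -0.91 and -0.93 in RIS cells. Each library thus had more contact than average upstream and less than average downstream. The sides differed by 1.95 ± 0.06 in growing cells (SD, n = 3), a 3.85-fold difference, and by 1.89 ± 0.02 in RIS cells (SD, n = 2), a 3.71-fold difference, and the groups overlapped (exact permutation p = 0.3). Of 16810 gene starts with values on both sides, 98.4% had a smaller difference between their sides in growing cells, where the median was 0.48.

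The strongest contacts of the JUN promoter bin beyond 120 kb lay 920 and 960 kb upstream, in the body of FGGY, which encodes a carbohydrate kinase. At 920 kb the log2 observed over expected was 3.72, 3.57 and 3.70 in the growing libraries, against 3.60 and 3.49 in the RIS libraries. The group means are 12.6-fold and 11.7-fold the average for that distance. At 960 kb it was 3.68, 3.53 and 3.65 in growing cells, against 3.55 and 3.75 in RIS cells. The recovered contacts behind the value at 960 kb numbered 114, 116, 131, 73 and 105 in the same order of libraries. At 1000 kb the contact dropped to 1.36 in growing and 0.98 in RIS cells, and that bin was the deepest border of the window. Between JUN and FGGY, from 40 to 480 kb upstream, no protein-coding gene starts. On the other side, beyond 480 kb downstream in the body of DAB1, 13 partner bins held only 6 to 14 recovered contacts together in each library, 0.0728 of the expected contact in growing and 0.0794 in RIS cells.

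FOSL2 showed the same kind of one-sidedness, toward its upstream side at lower coordinates. The upstream value was 0.97 in growing cells and 0.93 in RIS cells (means of 3 and 2 libraries). Its strongest partners were the bin 680 kb upstream, which holds no protein-coding start, and the bin 640 kb upstream with the start of MRPL33, a mitochondrial ribosomal protein gene. At 680 kb upstream the log2 observed over expected was 3.26, 3.22 and 3.28 in the growing libraries, against 3.28 and 3.40 in the RIS libraries, from 95 to 158 recovered contacts a library. This was 9.53-fold the average in growing and 10.1-fold in RIS cells. All bins from 40 to 520 kb upstream, in the body of BABAM2, were above average in both conditions, and the contact then rose towards the peak. Downstream of FOSL2 the contact with the bins of PLB1, from 80 to 240 kb, was below average in both conditions.

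Downstream of FOSL2 the conditions differed as follows. Within 1 Mb downstream the value was -0.39, -0.43 and -0.28 in the growing libraries, against -0.16 and -0.09 in the RIS libraries. Both RIS libraries were higher than every growing library. The mean difference was 0.24 (exact permutation p = 0.1, the smallest possible), and 95.4% of the 16810 gene starts had a smaller change. From 520 to 1000 kb downstream, over TOGARAM2, CLIP4 and ALK, the values were -2.49, -2.04 and -1.90 in growing cells, against -1.30 and -1.51 in RIS cells, from 34 to 61 recovered contacts a library. The contact rose from 0.227 to 0.378 of the expected one, and 99.1% of gene starts had a smaller change there, with a median change of -0.02. These stretches were picked after their values were seen, and no single pair in them was called. From 520 to 1000 kb upstream the RIS libraries were also above the growing ones, with 1.87, 1.91 and 1.89 in growing cells, then 2.01 and 1.94 in RIS cells (difference 0.09, exact permutation p = 0.1).

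FOS had its contacts within 160 kb upstream. The bin 120 kb upstream, in the body of TMED10, had log2 observed over expected values of 1.84, 1.91 and 1.81 in the growing libraries, against 1.88 and 1.95 in the RIS libraries, with overlapping groups. The bin 160 kb upstream holds the start of NEK9, a mitotic kinase gene, and part of TMED10, which encodes a cargo receptor of the secretory pathway. There the values were 1.40, 1.53 and 1.43 in growing cells, against 1.84 and 1.92 in RIS cells. The recovered contacts numbered 182, 205 and 192 in the growing and 170 and 222 in the RIS libraries. Both RIS libraries exceeded all growing ones, and the contact was 2.74-fold the average in growing and 3.68-fold in RIS cells. Immediately downstream FOS had few contacts, with -2.02 at 80 kb in growing cells and -2.70 in RIS cells, before the contact returned to near average over JDP2 and BATF. The sides of FOS differed by 1.66 in growing and 1.69 in RIS cells, more than for 96.7% of gene starts.

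FOSL1 and ATF3 had weaker patterns. The FOSL1 promoter bin had a raw coverage 0.458 of that of the median bin in growing cells and 6 HindIII sites, beside a median of 12 over all bins, so its values rest on few contacts. Its highest value was at SART1, a splicing factor gene 80 kb upstream, with 1.27 ± 0.10 in growing cells (SD, n = 3) and 1.44 ± 0.08 in RIS cells (SD, n = 2). Beyond 120 kb its highest growing value, 400 kb upstream at CNIH2, TMEM151A and YIF1A, was 0.71 ± 0.21 in growing cells (SD, n = 3) beside 0.14 ± 0.69 in RIS cells (SD, n = 2), on 3 to 13 recovered contacts a library and with overlapping groups. In 27 of its 49 partner bins at least 1 library had no contact. ATF3 had nearly equal sides, with a difference of 0.08 in growing cells, and 9.17% of gene starts had a smaller one. Beyond 120 kb its highest growing value was at NEK2, a mitotic kinase gene 880 kb upstream, with 0.73, 0.14 and 0.42 in growing cells, then -0.23 and -0.47 in RIS cells. Both RIS libraries were below the growing ones, on 7 to 22 recovered contacts a library, and limma did not call the pair (-0.72, SE 0.35, adjusted p = 0.469). Its promoter bin met the bin 80 kb upstream at 0.98 ± 0.10 in growing and 1.07 ± 0.17 in RIS cells, and the start of its main transcript met the bin 120 kb upstream of it at 1.502 and 1.646.

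Changes of single pairs were tested with limma on all pairs of 40 kb bins within 2 Mb, on log2 balanced values. Of the 181 tested pairs that joined a member's promoter bin with a bin within 1 Mb, 0 were called at a false discovery rate of 5%, beside 0% of 454173 promoter pairs. Among these 181 pairs, 18 had an unadjusted p below 0.05, with 14 higher and 4 lower in RIS cells, and the smallest adjusted p was 0.295. Over all 1959041 pairs limma called 2, both lower in RIS cells, and 226198 (11.5%) had an unadjusted p below 0.05. These were not split by direction, so the 14 and 4 have no background share. The median difference of promoter pairs within 1 Mb was 0.02. The voom test on recovered contacts, run as an alternative that weights each pair by its depth, called 2 of 160 member pairs, both higher. It called 1.78% of 394687 promoter pairs as higher and 0.368% as lower, so 2 in 160 was near that background.

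The 2 pairs called by voom were FOS with the NEK9 bin and JUN with the bin 80 kb upstream of it. For FOS and NEK9 the difference between RIS and growing cells was 0.37 on the log2 scale in limma (SE 0.09, unadjusted p = 0.00205, adjusted p = 0.295) and 0.42 in voom (SE 0.11, adjusted p = 0.0265). For JUN and the bin 80 kb upstream, which holds no protein-coding gene, the log2 observed over expected was -0.02, 0.04 and 0.21 in the growing libraries, against 0.37 and 0.39 in the RIS libraries. Its difference was 0.34 in limma (SE 0.10, adjusted p = 0.334) and 0.46 in voom (SE 0.12, adjusted p = 0.0333). Without growing replicate 1 or 2 voom called 0 member pairs, and without growing replicate 3 it called 3. Without growing replicate 1, 2 or 3 it called 3374, 3678 and 6064 of the 394687 promoter pairs higher, beside 7030 with all libraries. It called 853, 1114 and 1694 lower, beside 1453, so the calls fell over all promoter pairs as well. In 80 kb bins limma called 3 of 112 member pairs. There the JUN and FOSL1 promoter bins were each pooled with the bin 40 kb downstream. JUN with the next 80 kb bin, which spans the bins 40 and 80 kb upstream, was called higher (0.28, adjusted p = 0.0475). FOSL1 with the 80 kb bins 640 and 720 kb downstream was called lower (-1.60, adjusted p = 0.0469, and -2.598, adjusted p = 0.03). From 640 to 760 kb downstream the 40 kb pairs of the FOSL1 promoter bin, without the pooled neighbour, held 0 to 7 recovered contacts in each growing library. In each RIS library they held 0 to 2, so the sizes of these FOSL1 differences are poorly determined. Over all 748101 pairs of 80 kb bins 0.389% were called higher and 0.456% lower.

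Of the 3 pairs per gene with the smallest limma p, limma called none, and the 2 called by voom are among them. For JUN the other pairs were the bin 160 kb downstream in MYSM1, a histone H2A deubiquitinase gene (0.57, SE 0.22), and the bin 640 kb upstream in FGGY (-0.45, SE 0.18). For FOS they were the bins with the starts of FLVCR2, a choline transporter gene (1.45, SE 0.51, from 2 to 10 contacts a library), and of BATF (0.55, SE 0.19). For FOSL1 they were the bin 80 kb downstream over CFL1 and OVOL1 (0.60, SE 0.18), the bin 520 kb downstream with FRMD8, SLC25A45 and TIGD3 (1.37, SE 0.47, from 1 to 3 contacts a library) and the bin of RNASEH2C (0.91, SE 0.33). FOSL2 had the bin 200 kb downstream in PLB1 (1.12, SE 0.37), the bin 480 kb upstream in BABAM2 (-0.49, SE 0.17) and the bin with the PLB1 start (0.37, SE 0.15). For ATF3 they were the bin 400 kb upstream (-1.15, SE 0.30), the bin 920 kb upstream over NEK2 (1.55, SE 0.48) and the bin of PACC1 (-0.54, SE 0.20). All these are differences in log2 balanced contact from limma, with adjusted p-values from 0.295 to 0.417.

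Some other AP-1 family genes lie close to the members, and their contacts with each other were read from the same fit. BATF and JDP2, which encode leucine zipper partners of JUN, start 240 and 160 kb downstream of FOS. FOS met the BATF bin at -0.16, -0.20 and -0.24 (log2 observed over expected) in the growing libraries, against 0.53 and 0.09 in the RIS libraries. The RIS libraries lay above the growing ones, with 42 to 44 recovered contacts in every library, and the pair was not called (0.55, SE 0.19, adjusted p = 0.369). Leaving out RIS replicate 1 gave 0.339, and leaving out RIS replicate 2 gave 0.771. With the JDP2 bin FOS had -0.18, -0.17 and -0.50 in growing cells, against -0.48 and -0.66 in RIS cells, with overlapping groups (-0.24, SE 0.18, adjusted p = 0.626), and the difference was -0.14 without RIS replicate 2. ATF3 and BATF3, a dendritic cell factor gene 120 kb downstream, met at -0.30 in growing and -0.17 in RIS cells (0.19, SE 0.14, adjusted p = 0.61). FOSL1 and BATF2, 880 kb apart, shared only 0 to 3 recovered contacts a library, too few for a statement.

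The summed contact of each promoter bin with its surroundings within 1 Mb, called local contact below, was tested over all 13198 promoter bins. It rose for FOS. Its values (log2 observed over expected) were 0.05, 0.09 and 0.08 in the growing libraries, against 0.22 and 0.18 in the RIS libraries, with both RIS libraries above the growing ones. The difference was 0.13 (SE 0.03, limma adjusted p = 0.0113), a 1.09-fold change. FOS was the 1 member called of 5, where 23.8% of all promoter bins were called higher and 6.65% lower, and the median change over all promoter bins was 0.04. Without RIS replicate 1 the FOS difference was 0.11 (SE 0.034, beside 0.027 with all libraries) and did not pass, in a fit where fewer promoter bins passed. As the share of all contacts of the bin, without correction for distance, it was 0.08 (adjusted p = 0.394).

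FOSL1 differed by the same amount, 0.13 (SE 0.04), and was not called (adjusted p = 0.0533), but passed without growing replicate 2 (0.16, adjusted p = 0.015). Its values were -0.23, -0.10 and -0.21 in growing, against -0.03 and -0.09 in RIS cells, with both RIS libraries above the growing ones. ATF3 differed by 0.05 (adjusted p = 0.292), FOSL2 by 0.04 (adjusted p = 0.285) and JUN by 0.02 (adjusted p = 0.595). With a 500 kb window JUN differed by 0.08 (limma adjusted p = 0.0592) and FOSL2 by 0.02 (adjusted p = 0.661). The ATF3 difference was 0.015 without RIS replicate 2, 0.0306 without growing replicate 1 and 0.0796 without RIS replicate 1. For JUN and FOSL2 the sign turned without the distance correction, which also moved the median over all promoter bins from 0.04 to -0.002. For JUN the sign turned also without RIS replicate 1. FOSL2 had 0.45, 0.48 and 0.44 in growing, against 0.49 and 0.50 in RIS cells, and its growing mean was above that of 99.2% of promoter bins. JUN had 0.30, 0.29 and 0.30 in growing, against 0.34 and 0.30 in RIS cells, above 92.7% of promoter bins. FOS (58.3%), ATF3 (36.6%) and FOSL1 (16.2%) ranked lower. With the first ATF3 start, the order of the levels in growing cells was thus FOSL2, JUN, FOS, ATF3 and FOSL1. Neighbours in this order differed by more than the spread between growing libraries. The main ATF3 start had 0.08 ± 0.06 in growing cells (SD, n = 3), above 59.5% of promoter bins, and its growing libraries overlapped those of FOS. In RIS cells the libraries of ATF3 and FOSL1 overlapped, with 0.01 ± 0.05 and -0.06 ± 0.05 (SD, n = 2).

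The change of FOS was shared by its surroundings. Of the 50 other bins within 1 Mb of the FOS promoter bin, 43 had a smaller change in local contact, but their median was 0.08, also above 0. Around FOSL1 the median of 49 other bins was 0.06, and around FOSL2 the median was 0.08, above the 0.04 of the FOSL2 promoter bin itself. Around ATF3 the median was 0.02, and the bin with the main ATF3 start, at 0.09, was above all 50 other bins of its window (adjusted p = 0.116).

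The genes outside the window whose 5 local contact values lay nearest to a member's, by root mean square distance, were GUCA1B and MRPS10 (in 1 bin) for JUN with a distance of 0.0066, and CLU and ALX4 for FOS with 0.0101 and 0.0122. For FOSL2 they were C1QTNF9B and MIPEP (in 1 bin, 0.0112), for FOSL1 RCSD1 and F2RL1 (0.0262 and 0.0288) and for ATF3 BZW1 and ZDHHC17 (0.0165 and 0.0175). Each was chosen from all promoter bins outside the window, and 5 libraries are few points for such a likeness.

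**Figure D2:**
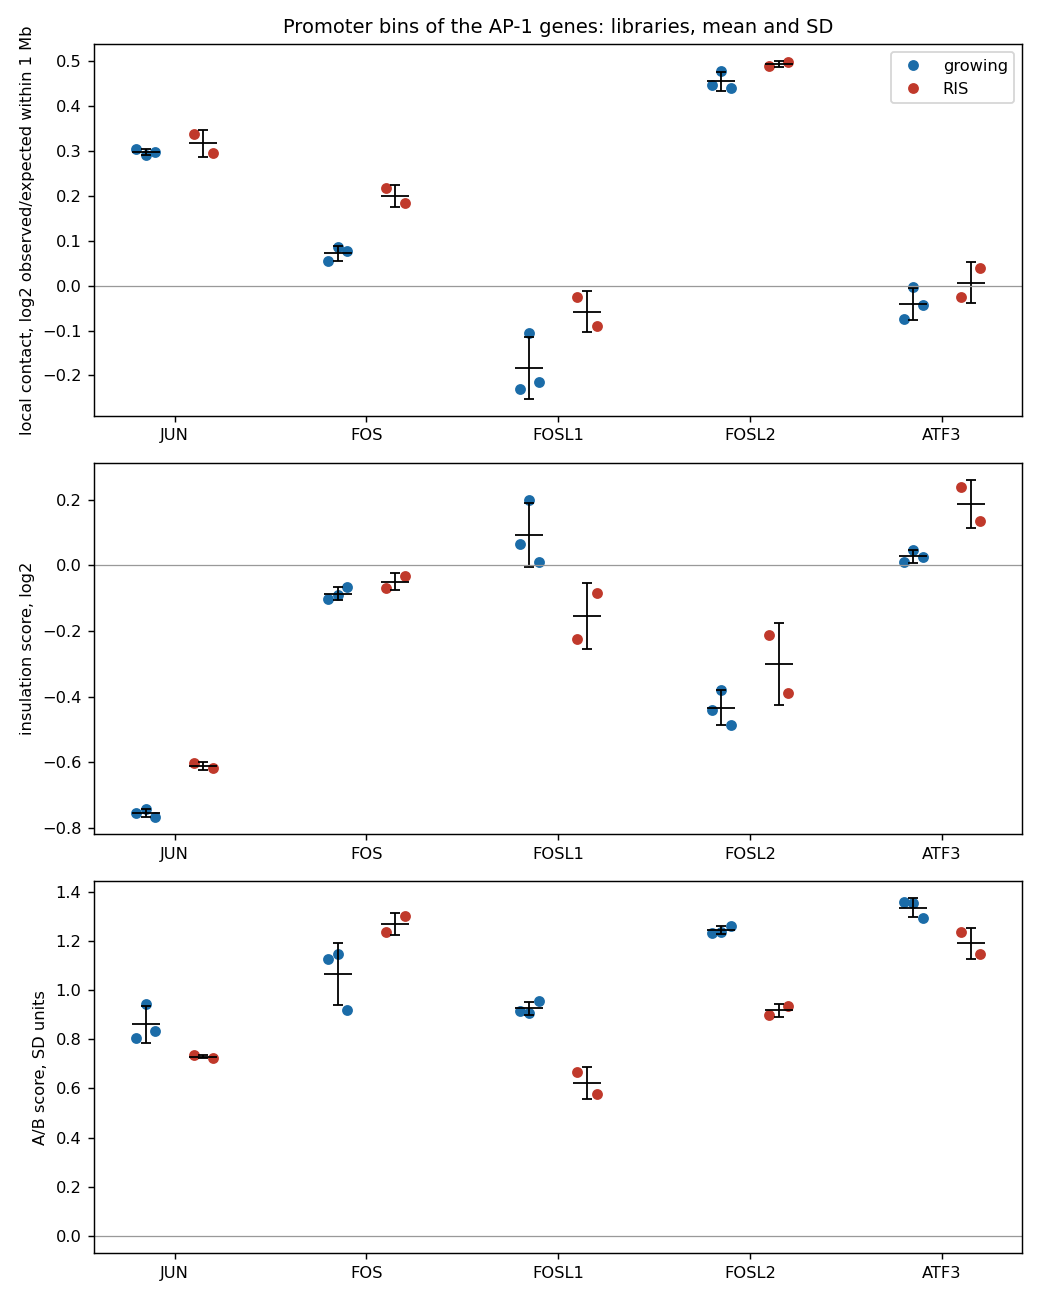
Local contact within 1 Mb, insulation score and A/B score of the 5 promoter bins, with a point per library (blue, 3 growing; red, 2 RIS), the group mean as a bar and the SD as whiskers. FOS local contact lies between 0.05 and 0.09 in growing and at 0.18 and 0.22 in RIS cells, and the A/B scores of FOSL2 and FOSL1 are lower in both RIS libraries.

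The insulation score tells how many contacts pass over a bin, here between the 520 kb on either side, relative to the chromosome mean on the log2 scale. A low score marks a border between domains. For JUN the score was -0.75, -0.74 and -0.77 in the growing libraries, against -0.60 and -0.62 in the RIS libraries, so more contacts crossed the JUN promoter in both RIS libraries. The difference was 0.14 (SE 0.03, limma adjusted p = 0.005). For ATF3 it was 0.01, 0.05 and 0.02 in growing, against 0.24 and 0.14 in RIS cells, a difference of 0.16 (SE 0.04, adjusted p = 0.00982). For FOSL1 it went the other way, from 0.07, 0.20 and 0.01 in growing to -0.22 and -0.08 in RIS cells, a difference of -0.25 (SE 0.06, adjusted p = 0.0126). FOSL2 differed by 0.13 (SE 0.06, adjusted p = 0.0746) and FOS by 0.04 (SE 0.03, adjusted p = 0.356), with overlapping groups for both. The called shifts also showed in nearby bins, but their 520 kb windows share many pairs with those of the promoter bins, so they are not separate measurements. The bin 40 kb upstream of JUN went from -0.19, -0.15 and -0.21 to -0.05 and -0.05, while 120 kb downstream the groups overlapped. The bin 40 kb upstream of ATF3 went from -0.01, 0.03 and 0.005 to 0.22 and 0.15. The bin 200 kb downstream of FOSL1 went from -0.57, -0.64 and -0.63 to -0.90 and -0.94.

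Thus 2 of the 5 members were called higher and 1 lower in insulation score, where 24.1% of 13490 promoter bins were called higher and 24% lower. Without RIS replicate 1 the difference was 0.11 for ATF3 (adjusted p = 0.0673) and -0.175 for FOSL1 (adjusted p = 0.109), and neither passed. The FOSL2 difference was 0.046 without RIS replicate 1 (adjusted p = 0.494) and 0.22 without RIS replicate 2 (adjusted p = 0.0158), so it depends on the RIS library. With 1 RIS library left, that library is assumed to vary like the growing ones. The FOS difference was 0.018 without RIS replicate 2 and 0.054 without RIS replicate 1, and with a 280 kb window its sign turned to -0.05.

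**Figure D3:**
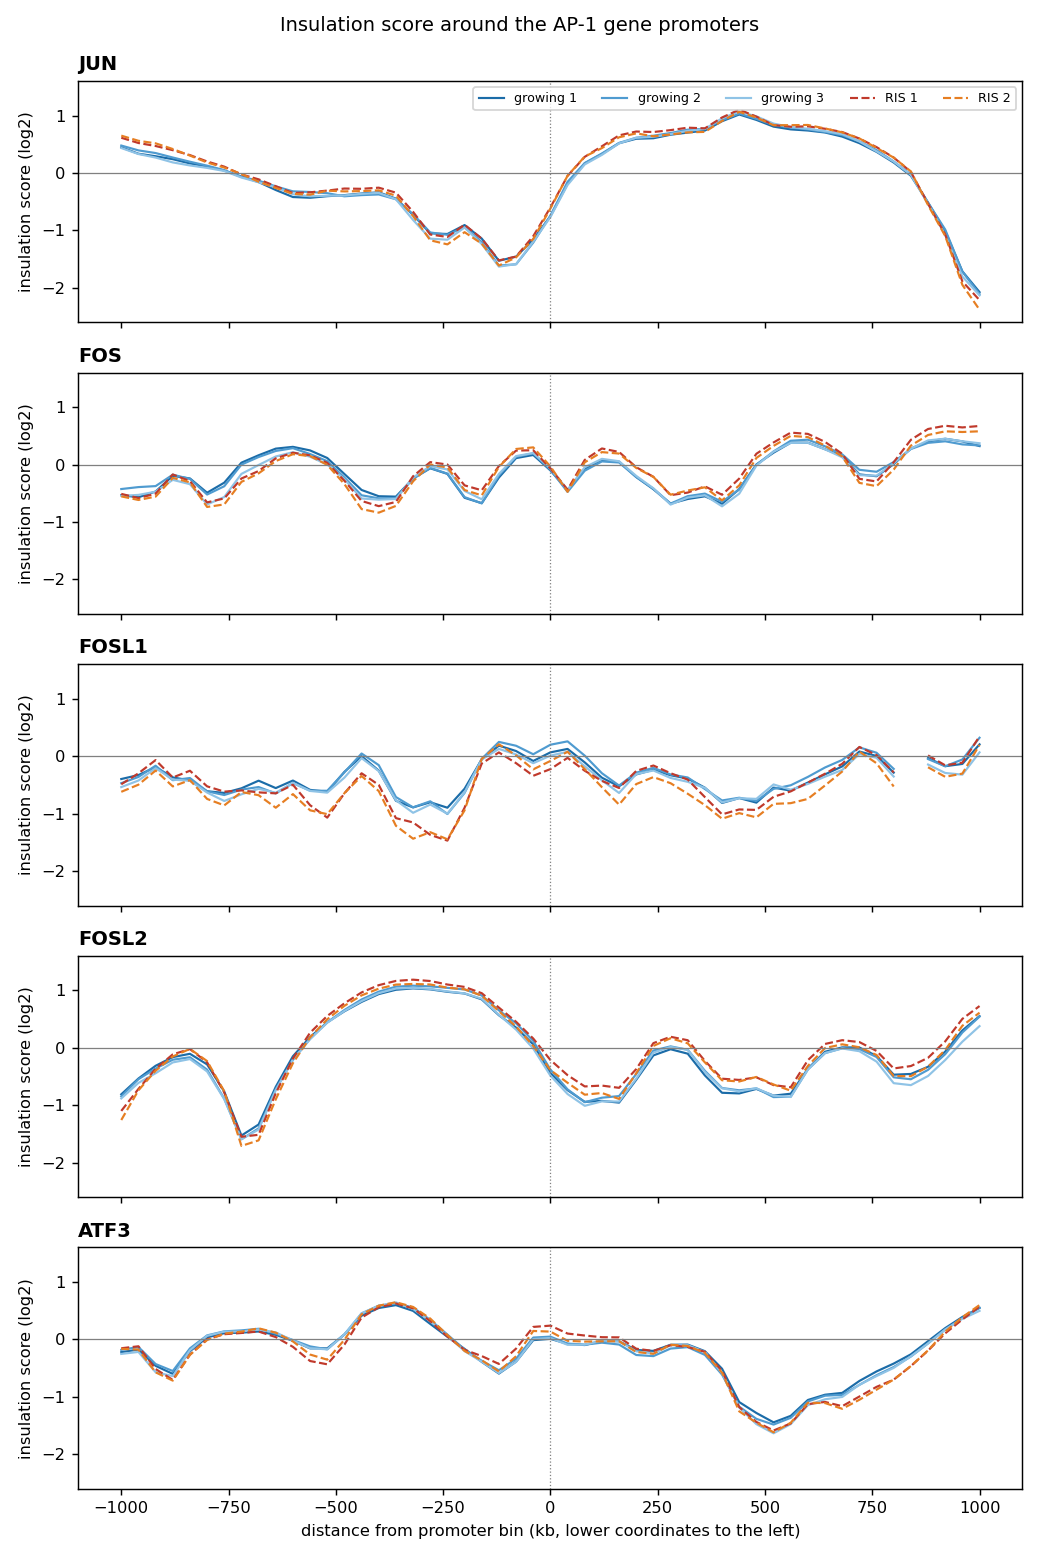
Insulation score (log2, 520 kb windows) at every 40 kb bin within 1 Mb of the 5 promoter bins, with lower coordinates to the left; blue solid lines are growing and dashed red or orange lines RIS libraries. The minima are borders, such as those 120 kb below and 1000 kb above JUN, and most stand at the same place in all 5 libraries.

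Borders were taken as minima of the mean insulation score with a prominence of at least 0.1. In the 5 windows there were 29 borders in growing and 30 in RIS cells, of which 25 stood in the same bin. JUN lay in a long domain with the same ends in both conditions, chr1:59120001-60280000, from a border 120 kb downstream in MYSM1 to the one 1000 kb upstream in FGGY. FOS lay in a domain of 200 kb, between a border 160 kb upstream at NEK9 and one 40 kb downstream. The FOSL1 domain was also 200 kb long, from the border 40 kb downstream at CFL1, MUS81 and SNX32 to the one 160 kb upstream at GAL3ST3, PACS1 and SF3B2. ATF3 lay between the border at NENF, 120 kb upstream, and the one at NSL1 and TATDN3, 240 kb downstream.

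FOSL2 was the member whose nearest border moved. Its upstream border, 720 kb away at SLC4A1AP and SUPT7L, was in the same bin in both conditions. The downstream border stood 80 kb from the promoter, at the start of PLB1, in growing cells and 160 kb from it, within PLB1, in RIS cells. The score at the 80 kb position was -0.94, -0.95 and -1.01 in the growing libraries, against -0.67 and -0.82 in the RIS libraries, a difference of 0.22 (adjusted p = 0.00593). At the 160 kb position it was -0.95, -0.84 and -0.94 in growing, against -0.70 and -0.89 in RIS cells, a difference of 0.12 with overlapping groups (adjusted p = 0.136). Growing libraries were split here, since 2 of the 3 had a minimum within 1 bin of the 80 kb position and 1 within 1 bin of the 160 kb position, while both RIS libraries had theirs at the latter. The low stretch between the positions is nearly flat, so the place of its minimum rests on small differences. The FOSL2 border 520 kb downstream, picked after its value was seen, was also higher in RIS cells, by 0.20 (adjusted p = 0.00133).

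Over all 34 border bins of the 5 windows, 5 were called higher and 10 lower in RIS cells. Over all borders of the genome 15.6% were called higher and 37.2% lower. Borders were called on the same libraries, so these values are a description. The border of FOS at NEK9 was called higher, from -0.67, -0.68 and -0.60 in growing to -0.45 and -0.54 in RIS cells (0.16, adjusted p = 0.012), and this is the bin whose contact with FOS voom called. The FOS border 40 kb downstream differed by less than the spread between libraries (-0.002, adjusted p = 0.96). The JUN border at 1000 kb was lower in RIS cells, with a difference of -0.19 (adjusted p = 0.0134), and the one at 120 kb downstream differed by 0.02 (adjusted p = 0.68). The border next to FOSL1, 40 kb downstream, differed by -0.23 (adjusted p = 0.00921), and the one 160 kb upstream differed by -0.14 (adjusted p = 0.173). Both nearest ATF3 borders were not called (0.08, adjusted p = 0.153, and 0.02, adjusted p = 0.678).

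Of the 11 borders in the FOSL1 window 5 were called lower, beside the 37.2% of all borders. The one with the largest difference, picked after its value was seen, lay 240 kb downstream of FOSL1 at the starts of RELA, the p65 subunit gene of NF-κB, and SIPA1. Its score was -0.897, -1.007 and -1.0003 in the growing libraries, against -1.47 and -1.45 in the RIS libraries. Fewer contacts crossed it in both RIS libraries, a difference of -0.49 on the log2 scale (SE 0.04, limma adjusted p = 0.000263). The border 520 kb downstream, at FRMD8, SLC25A45 and TIGD3, differed by -0.42 (adjusted p = 0.000247).

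The A/B score separates the open (A, positive) from the closed (B, negative) compartment, in bins of 120 kb and in units of the SD of each chromosome. All 5 members were in the A compartment in every library. The score fell for FOSL2, from 1.23, 1.24 and 1.26 in growing cells to 0.90 and 0.94 in RIS cells. The difference was -0.33 (SE 0.05, limma adjusted p = 0.00393), and the groups did not overlap. It also fell for FOSL1, from 0.91, 0.91 and 0.96 to 0.67 and 0.58, a difference of -0.30 (SE 0.06, adjusted p = 0.00656). ATF3 differed by -0.15 (adjusted p = 0.0828) and JUN by -0.13 (adjusted p = 0.128), with both RIS libraries below the growing ones. The bin with the main ATF3 start, which it shares with BATF3, was called lower (-0.30, adjusted p = 0.0123).

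In 120 kb bins FOS was the member with a positive difference in A/B score, 0.20 (SE 0.08, limma adjusted p = 0.0768). Its score went from 1.13, 1.15 and 0.92 in growing to 1.24 and 1.30 in RIS cells. With bins of 200 kb FOS was called lower (-0.14, limma adjusted p = 0.0478), so its direction depends on the bin. Without growing replicate 3, the library with the vector label, the difference in 120 kb bins was 0.131 (adjusted p = 0.105). With 2 of 5 members called lower and 0 higher in the 120 kb bins, the background was 19.7% lower and 22% higher of 9716 bins with promoters, whose median change was -0.02. In 200 kb bins the FOSL2 difference was -0.154 (adjusted p = 0.0379), under that of the 120 kb bins by more than 1.5 times. JUN (-0.17, adjusted p = 0.0448) and FOSL1 (-0.29, adjusted p = 0.041) also passed as lower there, and ATF3 did not (-0.15, adjusted p = 0.119). Of all 14004 bins of 200 kb, 3503 were called lower and 2771 higher. Without RIS replicate 1 FOSL2 did not pass (-0.31), and without RIS replicate 2 FOSL1 did not pass (-0.26). Their SEs were then 0.077 and 0.078, beside 0.053 and 0.057 with all libraries, and fewer bins passed over the genome as well.

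**Figure D4:**
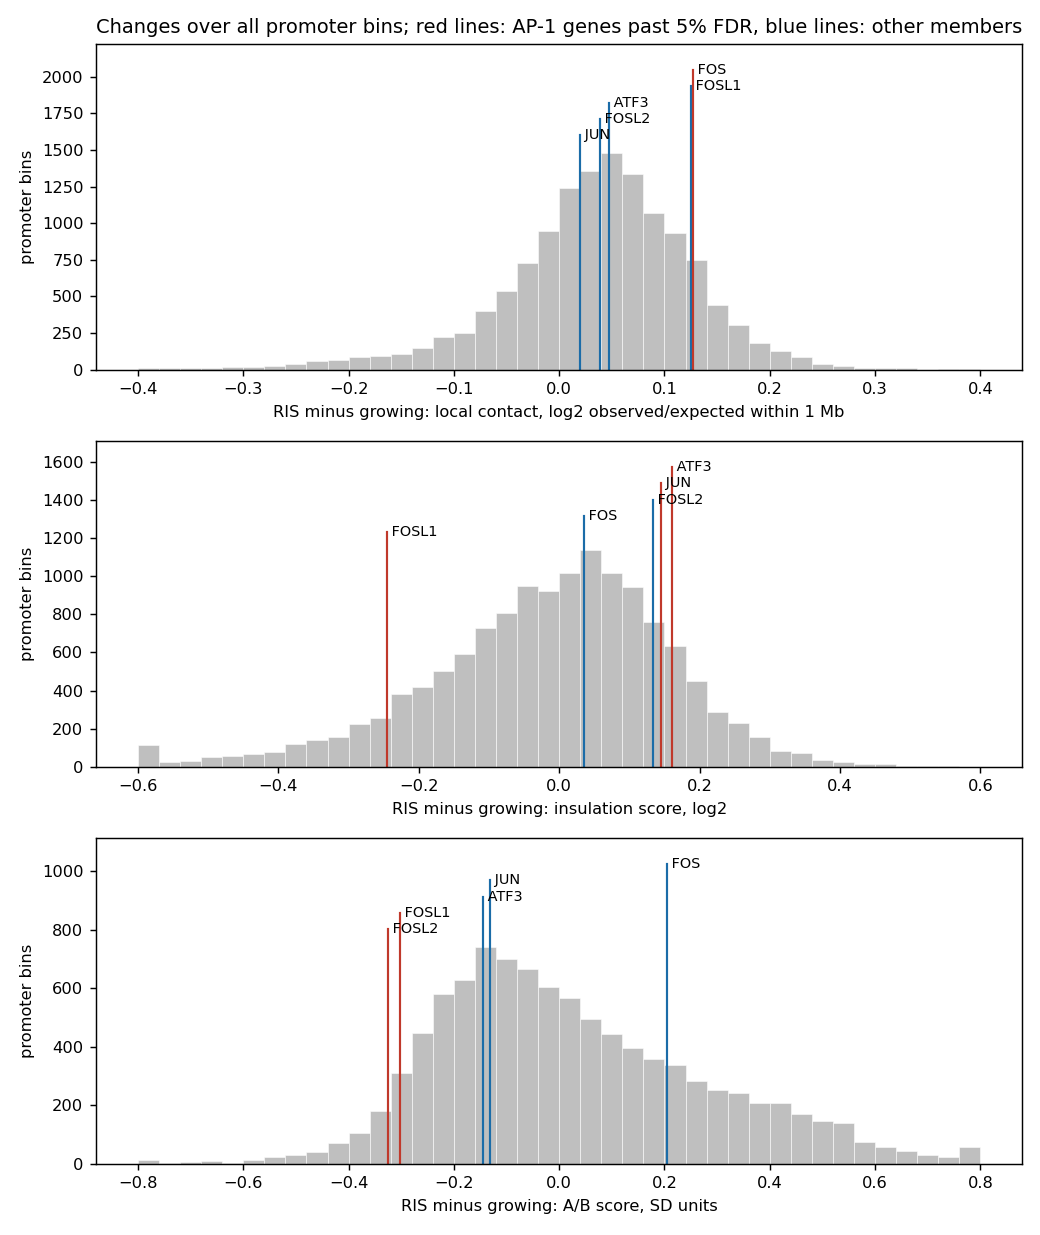
Distribution of the difference between RIS and growing cells over all promoter bins (grey bars, number of bins; the outermost bars also hold values beyond the axis) for local contact, insulation score and A/B score, with a line for each member, red where it passed a false discovery rate of 5% and blue otherwise. The members lie within the bulk of the bins, with FOSL2 and FOSL1 toward the low end of the A/B changes.

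The other 10 AP-1 family genes were given the same measures. In local contact 3 of the 9 with a value were called higher and 0 lower, beside the 23.8% higher and 6.65% lower of all promoter bins: BATF2, an interferon-induced factor gene (0.21, adjusted p = 0.0112), CREB5, an ATF2 relative (0.13, adjusted p = 0.0211), and JDP2 (0.12, adjusted p = 0.0235). JUNB (-0.07, adjusted p = 0.192), FOSB (0.10, adjusted p = 0.126), BATF, BATF3, ATF2 and ATF7 were not called, and JUND had too few partner bins. In insulation score BATF (0.21, adjusted p = 0.00103), CREB5 (0.18, adjusted p = 0.016) and JDP2 (0.16, adjusted p = 0.0036) were called higher, 0 of 9 lower, and FOSB had no value. The background was 24.1% higher and 24% lower. In A/B score BATF was called higher (0.47, adjusted p = 0.00313), from 0.70, 0.75 and 0.88 in growing to 1.307 and 1.201 in RIS cells, while BATF3 (-0.30, adjusted p = 0.0123) and BATF2 (-0.29, adjusted p = 0.0145) were called lower, and 7 of 10 were not called, where 22% of bins with promoters were called higher and 19.7% lower. BATF and JDP2 share the FOS window, BATF3 that of ATF3 and BATF2 that of FOSL1, so these 4 genes do not add separate places of the genome.

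The libraries also fall into a class with few and a class with many duplicate reads by the study's alignment table, and each class holds both conditions. Within the class with few duplicates (growing replicates 1 and 2, RIS replicate 1) FOS local contact differed by 0.15, and within the other class (growing replicate 3, RIS replicate 2) by 0.11. The insulation score of JUN differed by 0.15 in both classes, that of ATF3 by 0.21 and 0.11, and that of FOSL1 by -0.36 and -0.09. The A/B score of FOSL2 differed by -0.34 and -0.32, and that of FOSL1 by -0.24 and -0.38. The contact of FOSL2 within 1 Mb downstream differed by 0.25 and 0.18, that from 520 to 1000 kb downstream by 0.96 and 0.39, and the contact of FOS with BATF by 0.71 and 0.34. In every one of these both RIS libraries lay beyond all growing libraries, so no split of the libraries could turn the sign. Among member measures with overlapping groups, JUN local contact turned (0.04 with few and -0.002 with many duplicates). ATF3 local contact and the insulation scores of FOS and FOSL2 kept their sign. The classes therefore cannot decide whether duplicates play a part. Raw coverage of the promoter bins before balancing changed by -0.07 (ATF3) to 0.06 (FOSL1) on the log2 scale relative to the median bin. Over all bins the median absolute change was 0.04.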

How the data were processed

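The deposited matrices hold ICE-balanced contact signal for pairs of genomic bins (Hi-C at 40 kb, capture at 10 kb). The authors aligned reads to hg19 with HiC-Pro after FastQC, removed artefacts (HiC-Pro, diffHic) and duplicates (samtools markdup), and balanced each library by ICE. Library totals were set equal, so depth was recovered by dividing out 1 factor per bin. This returned whole contacts (tolerance 0.05) for 100% of pairs with small counts. For larger counts the tolerance grew with the count, so the check says little there.

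Gene starts came from a GENCODE annotation lifted to GRCh37, whose chromosome lengths match the files on 24 of 25 chromosomes. Values were scaled to a common depth, log2-transformed with a pseudocount of 0.5, loess-normalized on abundance (span 0.3, 4 iterations) and fitted with limma (minimum mean 5, Benjamini-Hochberg at 5%). Local contact, insulation and A/B score (120 kb bins) were fitted with limma over all bins with a value, beside the two-sided exact permutation test. Counting error alone is covered by the recovered contacts. Scripts were tested on simulated data.

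The members, the list of other family genes and the tests were chosen with earlier results of these data known. Named were the members, the 10 other family genes, the 3 pairs per member with the smallest limma p, the nearest borders and the 2 genes nearest in local contact. The replicate numbers do not pair the samples by the labels. Of the 6 correlations between deviations of growing and RIS libraries over promoter bins, the same-numbered ones were 0.0425 and -0.138. Deviations of 2 RIS libraries from their mean mirror each other, so growing replicate 1 gave 0.0425 and -0.0425. These correlations therefore cannot decide whether the samples are paired. Tools were R 4.3.3 (limma 3.58.1) and Python 3.11.15 (pandas 2.3.3, scipy 1.17.1, numpy 2.4.6, matplotlib 3.10.9).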

Additional observations from a re-analysis of the deposited data

How the results depend on the processing

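Of 184 values recomputed under alternatives, 160 kept their direction and their side of the threshold. With a single library left out, the lowest and highest differences were -0.00139 and 0.0406 for JUN local contact, 0.11 and 0.144 for FOS, 0.0927 and 0.164 for FOSL1, 0.015 and 0.0796 for ATF3, 0.046 and 0.222 for FOSL2 insulation, -0.317 and -0.175 for FOSL1 insulation, 0.109 and 0.212 for ATF3 insulation, -0.344 and -0.306 for the FOSL2 A/B score, -0.348 and -0.258 for that of FOSL1, 0.131 and 0.246 for that of FOS, 0.339 and 0.771 for FOS with BATF, -0.349 and -0.14 for FOS with JDP2, and 0.123 and 0.258 for ATF3 with BATF3. Without distance correction local contact differed by -0.000571 for JUN, -0.0207 for FOSL2 and 0.0778 for FOS (adjusted p = 0.394), while the median promoter bin moved from 0.0426 to -0.0021. FOSL1 local contact passed with a 500 kb window (0.14, limma adjusted p = 0.0462), with the duplicate class as a block (0.134, adjusted p = 0.0297) and without growing replicate 2 (0.164, adjusted p = 0.015). FOSL2 insulation passed with the same block (0.154, adjusted p = 0.00988) and without RIS replicate 2 (0.222, adjusted p = 0.0158), but was 0.046 without RIS replicate 1 (adjusted p = 0.494). With 1 RIS library left out, the other is assumed to vary like the growing libraries. Smaller insulation windows gave -0.0502 for FOS. In 200 kb bins the A/B differences of FOS (-0.142, limma adjusted p = 0.0478) and JUN (-0.171, adjusted p = 0.0448) passed as lower. So did those of FOSL2 (-0.154, adjusted p = 0.0379) and FOSL1 (-0.286, adjusted p = 0.041), beside 3503 of all 14004 bins. Called member pairs numbered 0 in limma under the alternatives at 40 kb and 2 in voom. They numbered from 0 to 3 in voom with a growing library left out (an alternative chosen after seeing the data), beside 13052 to 22822 calls over all pairs. With 80 kb bins 3 of 112 were called, beside 6317 of all 748101 pairs. These were JUN with the next 80 kb bin upstream as higher, and FOSL1 at -640 and -720 kb as lower. Over all pairs limma called 2, and 760 without an abundance trend, 1373 without RIS replicate 1 and 6764 without RIS replicate 2, beside 26111 in voom. Without loess the median pair moved to -0.118. The replicate block changed no call of a member (FOS local contact 0.129). Only 2 replicate numbers are shared, and by the labels they do not pair the samples. Their correlations, 0.0425 and -0.138, cannot decide this, since the deviations of 2 RIS libraries mirror each other. FOSL1 with BATF2, on 0 to 3 contacts, ran from -2.62 to 1.07 with a library left out and was 0.152 with the replicate block. The causes of these changes were not tested. The capture alternative was not run, since no member gene holds capture values.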
